A study of Mus musculus with 2 samples.

Results

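The miRNA genes at the Meg3 end of the imprinted Dlk1-Dio3 region of mouse chromosome 12 were examined in the adrenal gland. They are 10 of the 2202 miRNA genes in the count tables and were chosen by gene symbol, by a rule that uses no count, though with earlier results of these data known. On the Meg3 side lie Mir673, Mir493, Mir337, Mir540 and Mir665, and antisense to the gene Rtl1 lie Mir431, Mir433, Mir127, Mir434 and Mir136. The tissue came from B6CASTF1/J female mice, an F1 cross of strains C57BL/6J and CAST/EiJ, at 14 days of age. The series holds 1 group of 2 small RNA libraries, labelled biological replicates 2 and 1, with no treatment and no other group. The label of replicate 2 names 1 numbered female and that of replicate 1 speaks of 3 females, while both give the same donor identifier. Whether replicate 1 is a pool is not stated. Differences between the libraries compare no condition, and they carry whatever else differed between these samples, other tissue in the dissection included.

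The Dlk1-Dio3 region carries genes that are read from only 1 parental chromosome. Dlk1, Rtl1 and Dio3 are expressed from the paternal copy, and the noncoding RNA Meg3 and the miRNA genes after it from the maternal copy. A miRNA is cut from a hairpin in a longer transcript and represses messenger RNAs that pair with its seed, bases 2 to 8 of the mature strand. Rtl1, a gene derived from a retrotransposon, is needed for the fetal vessels of the placenta. The miRNAs made opposite to it match its messenger RNA in full and can direct its cleavage, so maternal miRNAs act on a paternal transcript. In rat, Dlk1 protein is found in the outer adrenal cortex and capsule.

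The annotation (GENCODE M21, mouse build mm10) places all 10 genes on the plus strand of chromosome 12. Mir673, the first, starts 264 bases after the annotated end of Meg3, and Mir665 ends 2786 bases before the annotated gene body of Rtl1. No annotated gene on the plus strand overlaps any of the 10. Mir431 (chr12:109590447-109590537), Mir433 (chr12:109591715-109591838), Mir127 (chr12:109592846-109592915), Mir434 (chr12:109594506-109594599) and Mir136 (chr12:109595327-109595388) each lie whole within the single coding exon of Rtl1, which is on the minus strand. Mir673 (chr12:109571990-109572080), Mir493 (chr12:109580233-109580315), Mir337 (chr12:109585789-109585885), Mir540 (chr12:109586080-109586146) and Mir665 (chr12:109586314-109586407) are intergenic by this annotation, apart from the miRNA gene Mir3544 on the strand opposite to Mir337.

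**Figure D1:**
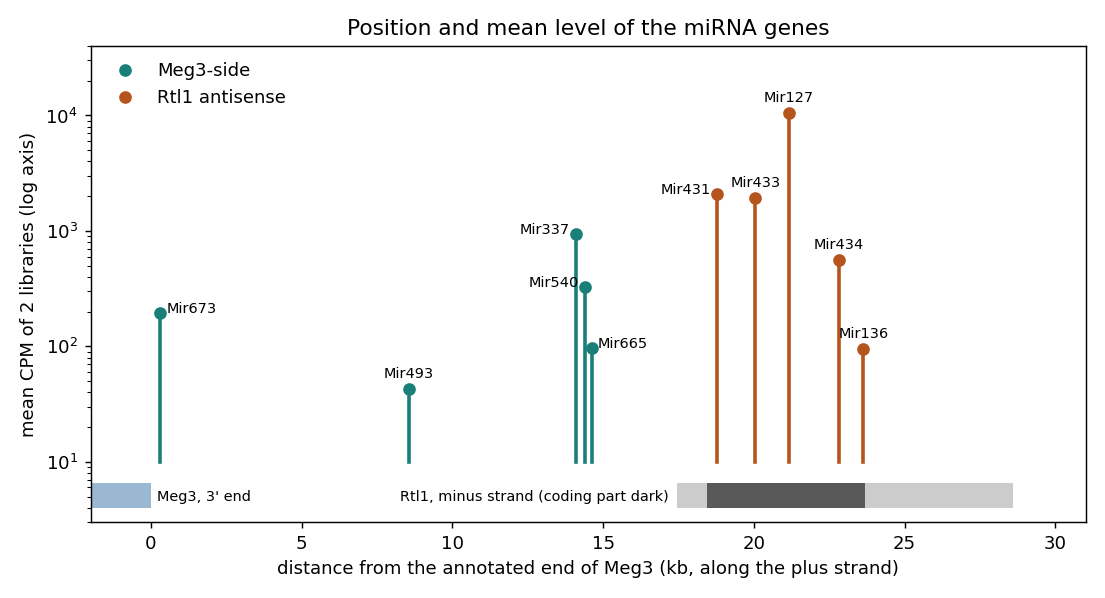
Mean level of each gene (CPM, counts scaled to a common miRNA total, mean of 2 libraries, log axis) against its distance from the annotated end of Meg3 in kb. All 5 Rtl1 antisense genes stand over the coding part of Rtl1, and Mir127 is the highest of the 10 at 10493 CPM.

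Mature sequences of both arms were found in RefSeq (GRCm38.p6) for all 10 genes. The following arms, with the seed in capitals, belong to the leading gene of each side and to Mir493, the one gene past 2-fold between the libraries under the scaling used below. Counts are per hairpin, so the arms cannot be told apart in these data.
miR-337-5p: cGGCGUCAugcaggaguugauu
miR-337-3p: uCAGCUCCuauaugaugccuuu
miR-493-5p: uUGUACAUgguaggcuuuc
miR-493-3p: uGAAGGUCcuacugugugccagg
miR-127-5p: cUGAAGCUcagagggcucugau
miR-127-3p: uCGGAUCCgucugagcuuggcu

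Because these 5 hairpins lie opposite the Rtl1 coding exon, their mature arms are complementary to its transcript by position, and the search below locates the sites without testing anything further. All 10 arms of the Rtl1 antisense genes had an exact complement, once each, in the Rtl1 transcript of 6358 bases, and all 10 sites lay in its coding part (positions 148 to 5379). None of the 10 arms of the Meg3-side genes had an exact complement there. The sites below are the stretches of the Rtl1 transcript that pair with an arm of each of the 5 genes, shown because they are what sets these genes apart, with the bases opposite the seed in capitals.
Rtl1 site of miR-136-5p (transcript position 199 to 220): ccaucaucaaaacaAAUGGAGu
Rtl1 site of miR-434-3p (965 to 986): aggagucgagugauGGUUCAAa
Rtl1 site of miR-127-3p (2642 to 2663): agccaagcucagacGGAUCCGa
Rtl1 site of miR-433-3p (3749 to 3770): acaccgaggagcccAUCAUGAu
Rtl1 site of miR-431-5p (5072 to 5092): ugcaugacggccuGCAAGACa

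The 20 arms had 20 different seeds, so the cluster is not a seed family. No arm was contained in the annotated hairpin of another miRNA gene, so none of the 10 shares a whole mature sequence with another listed gene. Only 2 seeds recurred in RefSeq mature miRNAs of other genes. The seed of miR-673-5p recurred in miR-6985-3p, whose gene Mir6985 had 6 counts in replicate 2 and 0 in replicate 1. The seed of miR-540-3p recurred in miR-6915-5p, whose gene Mir6915 had 5 counts in replicate 2 and 1 in replicate 1. Hairpin GC content ranged from 52.6% to 61.5% on the Meg3 side and from 40.3% to 60.4% among the Rtl1 antisense genes.

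Replicate 2 held 5034257 counts on miRNA genes and replicate 1 held 3797107. The libraries differed in markers of other tissues. Mir122, of hepatocytes, took 21.5% of miRNA counts in replicate 2 and 0.290% in replicate 1, and 1 of 6 skeletal muscle genes, Mir206, was detected, with that list at 0.155% in replicate 2 and 0.00279% in replicate 1. Kidney and gut genes (2 of 4 detected) held 0.116% in replicate 2 and 0.0109% in replicate 1, leukocyte genes (4 of 4) 0.107% and 0.216%, and red blood cell genes (3 of 3) 0.0560% and 0.224%. Endothelial Mir126a held 14.1% and 14.2%, and smooth muscle Mir143 and Mir145a 3.27% and 4.65%. All shares in this paragraph keep Mir122 in the totals, which lowers every other share more in replicate 2. Under the scaling used below, the log2 ratio of Mir126a, replicate 2 over replicate 1, was 0.44. The medulla list (4 of 4, led by Mir375) held 2.02% and 3.90%, and the genes studied in steroid-producing cells (6 of 6) 1.56% and 4.49%. Under the scaling used below, 3 of the 4 leukocyte genes and 4 of the 6 genes studied in steroid-producing cells were higher in replicate 2. The sums of these lists therefore go against most of their genes. Of the 2 smooth muscle genes, 1 was higher in replicate 2. None of 6 neuronal genes was detected, 4 of them at 0 in both libraries. All 6 are numbered copies, of Mir124a or Mir9, and may have lost reads that map to several places. Their low counts therefore do not show absence. The same limit holds for numbered copies in the skeletal muscle list and in the kidney and gut list. Numbered copies in the medulla list and in the list studied in steroid-producing cells were detected, but may also have lost reads in this way. The part of the differences between the libraries in the results below was not tested. In whole tissue, fewer cells of a type and less RNA per cell cannot be told apart.

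All 10 genes were detected, meaning at least 10 counts in each library. In replicate 2 they took 1.32% of miRNA counts together, with a Wilson 95% interval of 1.31 to 1.33. In replicate 1 they took 2.03%, with an interval of 2.01 to 2.04, which gives a mean of 1.67% ± 0.497 (SD, n = 2). With Mir122 left out of the totals, these shares were 1.68% and 2.03%, with a mean of 1.86% ± 0.246. The highest of them, Mir127, and the lowest, Mir493, were the same in both libraries. In replicate 2 Mir493 stood only just below Mir136, at 277 against 293 counts.

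By counts, the Meg3-side genes were the weaker set. They held 7681 counts against 58854 for the Rtl1 antisense genes in replicate 2, and 6285 against 70607 in replicate 1. Of the counts of the 10 genes, the Meg3-side genes thus took 11.5% in replicate 2 (exact Clopper-Pearson 95% interval 11.3 to 11.8) and 8.17% in replicate 1 (7.98 to 8.37). The mean was 9.86% ± 2.38 for the Meg3-side genes, against 90.1% ± 2.38 for the Rtl1 antisense genes (SD, n = 2). The distance between the sets in counts was far larger than the spread between the libraries. That spread does not measure how evenly different miRNAs are captured, which was not tested. As a share of all miRNA counts, the Meg3-side genes held 0.159% ± 0.00915 and the Rtl1 antisense genes 1.51% ± 0.488, with no overlap between the libraries' values. Because the share within the 10 genes is a ratio inside each library, it does not depend on how the libraries are scaled.

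Each set was led by 1 gene. Mir337 held 60.4% of the Meg3-side counts in replicate 2 and 57.2% in replicate 1. Mir127 held 70.8% of the Rtl1 antisense counts in replicate 2 and 68.4% in replicate 1. Mir127 alone made up 62.6% and 62.8% of the counts of all 10 genes. With Mir127 left out, the Meg3-side share of the remaining counts was 26.4%.

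**Figure D2:**
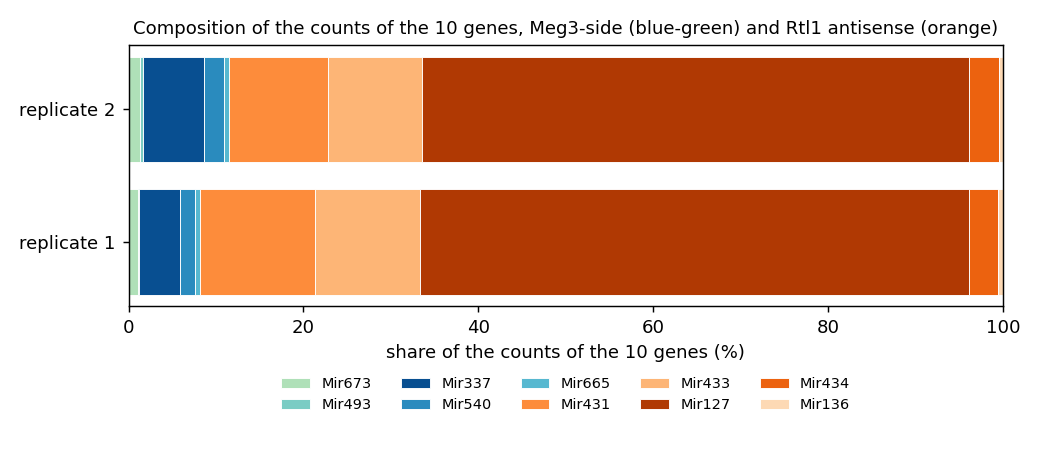
Share of the counts of the 10 genes (%) taken by each gene, with replicate 2 above replicate 1, Meg3-side genes in blue-green and Rtl1 antisense genes in orange. Mir127 takes 62.6% and 62.8%, and the Meg3-side genes together 11.5% and 8.17%.

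Mir337, the leading Meg3-side gene, had 4641 counts in replicate 2 and 3596 in replicate 1. That is 922 CPM in replicate 2 and 947 CPM in replicate 1, a mean of 934 ± 17.8 CPM (SD, n = 2). These CPM lie close together only with Mir122 in the totals. Without it, Mir337 stood at 1174 CPM in replicate 2 and 950 CPM in replicate 1. By mean CPM it ranked 80 among all miRNA genes. Mir540, which lies just after Mir337, had 1501 counts in replicate 2 and 1329 in replicate 1, or 298 and 350 CPM (324 ± 36.7). Mir673, next to Meg3, had 841 and 831 counts, or 167 and 219 CPM (193 ± 36.6). It stood near Mir770, which lies within Meg3 itself and had 160 CPM in replicate 2 and 225 CPM in replicate 1 (193 ± 46.3). Mir665 had 421 and 414 counts, or 83.6 and 109 CPM (96.3 ± 18.0).

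Mir493, which has been studied as a suppressor of tumour growth in human cells, was the lowest of the 10. It had 277 counts in replicate 2 and 115 in replicate 1. These are 55.0 CPM in replicate 2 and 30.3 CPM in replicate 1, with a mean of 42.7 ± 17.5 CPM (SD, n = 2). With Mir122 in the totals, Mir493 was the single one of the 10 genes whose CPM was higher in replicate 2, and without Mir122 the CPM of Mir337 and Mir540 (380 in replicate 2 and 351 in replicate 1) were higher there too.

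Mir127, the leading Rtl1 antisense gene and the best studied of those directed at Rtl1, had 41646 counts in replicate 2 and 48272 in replicate 1. Its level was 8273 CPM in replicate 2 and 12713 CPM in replicate 1, with a mean of 10493 ± 3140 CPM (SD, n = 2), at rank 20 of all miRNA genes. Outside chromosome 12, the detected gene nearest to it in mean log2 CPM was Mir335, in Mest, at 6220 CPM in replicate 2 and 14213 CPM in replicate 1. That likeness is one of level over 2 libraries, with a difference of 0.13 in mean log2 CPM. The gene nearest to Mir337 by the same measure was Mir425, at 578 and 1410 CPM.

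Mir431, studied in mouse muscle regeneration, had 7492 counts in replicate 2 and 10085 in replicate 1, or 1488 and 2656 CPM (2072 ± 826). Mir433 had 7148 and 9247 counts, or 1420 and 2435 CPM (1928 ± 718). These genes, neighbours along the chromosome, were also neighbours in level. Mir434 had 2275 counts in replicate 2 and 2507 in replicate 1, or 452 and 660 CPM (556 ± 147). Mir136, the last gene of the row, had 293 and 496 counts, or 58.2 and 131 CPM (94.4 ± 51.2). Levels within the Rtl1 antisense set therefore ran from 94.4 to 10493 CPM on the mean, and both Mir434 and Mir136 stood among the Meg3-side genes.

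**Figure D3:**
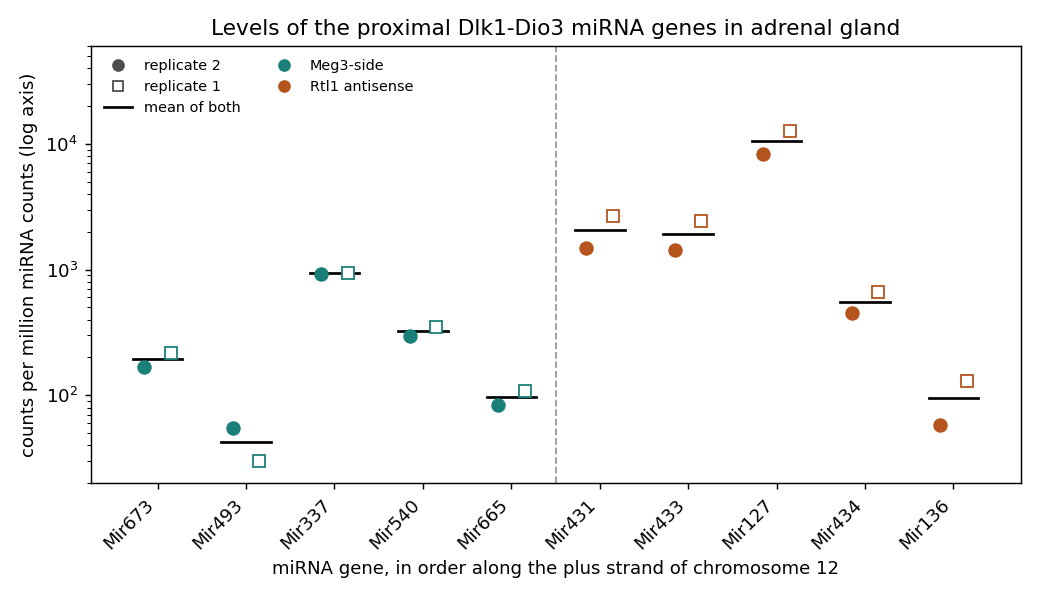
CPM of each gene (log axis) in replicate 2 (filled circles) and replicate 1 (open squares), with the mean of both as a bar, in chromosomal order. Rtl1 antisense genes stand right of the dashed line; with Mir122 in the totals, as here, Mir493 is the only gene with replicate 2 above replicate 1.

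By mean CPM the order was Mir127, Mir431, Mir433, Mir337, Mir434, Mir540, Mir673, Mir665, Mir136 and Mir493. Of the 9 pairs of neighbours in this order, 7 kept their order in both libraries and had CPM values that did not overlap. Among them, Mir136 had 1.06 times the counts of Mir493 in replicate 2 (293 against 277), a narrow step, and 4.31 times in replicate 1. Mir127 stood 5.06-fold above Mir431 on the mean, the widest step. The CPM of Mir431 and Mir433 overlapped between the libraries, though within each library Mir431 was the higher, with Mir431 at 1.05 times the counts of Mir433 in replicate 2 and 1.09 times in replicate 1. Mir665 and Mir136 overlapped and changed order, with Mir665 at 1.44 times the counts of Mir136 in replicate 2 and 0.835 times in replicate 1. Per 100 bases of annotated hairpin, the mean level was 14989 CPM for Mir127, 2277 for Mir431, 1554 for Mir433, 963 for Mir337, 592 for Mir434, 484 for Mir540, 212 for Mir673, 152 for Mir136, 102 for Mir665 and 51.4 for Mir493. On that scale the single change of order was that Mir136 stood above Mir665.

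Set against Mir127 in the same library, a measure free of scaling, all 5 Meg3-side genes took a larger proportion in replicate 2, and 3 of the other 4 Rtl1 antisense genes a smaller one. Mir431 had 18.0% of the Mir127 counts in replicate 2 and 20.9% in replicate 1, Mir433 17.2% and 19.2%, and Mir434 5.46% and 5.19%, the one Rtl1 antisense gene with a larger proportion in replicate 2. Mir136 had 0.704% in replicate 2 and 1.03% in replicate 1. On the Meg3 side, Mir337 had 11.1% of the Mir127 counts in replicate 2 and 7.45% in replicate 1, and Mir540 had 3.60% and 2.75%. Mir673 had 2.02% and 1.72%, Mir665 had 1.01% and 0.858%, and Mir493 had 0.665% and 0.238%.

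The same counts were also set as ratios of replicate 2 over replicate 1, scaled over all miRNA genes by TMM, a trimmed mean of gene ratios. Under this scaling Mir434 falls with the other Rtl1 antisense genes, unlike its proportion to Mir127. All 5 Meg3-side genes had a log2 ratio above 0 and all 5 Rtl1 antisense genes one below 0. Of all 358 detected miRNA genes, 48.3% had a log2 ratio above 0. The other detected plus-strand miRNA genes from Meg3 to Rtl1, which are not among the 10, were below 0, with Mir770 at -0.04 (95% counting interval -0.18 to 0.10) and Mir3070a at -0.05 (-1.17 to 1.06), both within counting error of 0. The Meg3-side genes stood at 1.31 for Mir493 (95% counting interval 0.99 to 1.64), 0.41 for Mir337 (0.35 to 0.48), 0.22 for Mir540 (0.11 to 0.33), 0.07 for Mir665 (-0.13 to 0.27) and 0.06 for Mir673 (-0.08 to 0.20). The intervals of Mir665 and Mir673 reach below 0, so for these the sign lay within counting error. The Rtl1 antisense genes stood at -0.09 for Mir434 (-0.18 to -0.01), -0.17 for Mir127 (-0.19 to -0.15), -0.33 for Mir433 (-0.37 to -0.28), -0.38 for Mir431 (-0.43 to -0.34) and -0.71 for Mir136 (-0.93 to -0.50). Summed, the Meg3-side counts had a log2 ratio of 0.33 and the Rtl1 antisense counts one of -0.22.

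The lowest Meg3-side ratio lay 0.16 above the highest Rtl1 antisense ratio on the log2 scale, a narrow gap between Mir673 and Mir434. The counting intervals of these genes overlapped (-0.08 to 0.20 and -0.18 to -0.01), so the full separation of the sets is not resolved beyond counting error. Mir770, at -0.04, lay inside the gap. The gap does not move with a common scaling factor, but the signs do. With library totals in place of TMM, which moved the median of all detected genes from -0.03 to -0.48, only Mir493 kept a log2 ratio above 0 among the 10. Without Mir122 in the totals, the Meg3-side genes held 0.194% of the counts in replicate 2 and 0.166% in replicate 1, and the Rtl1 antisense genes 1.49% and 1.86%. With Mir122 included, the Meg3-side shares were 0.153% and 0.166%, the other way round. With 1 library on each side no test of this difference over animals could be made.

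**Figure D4:**
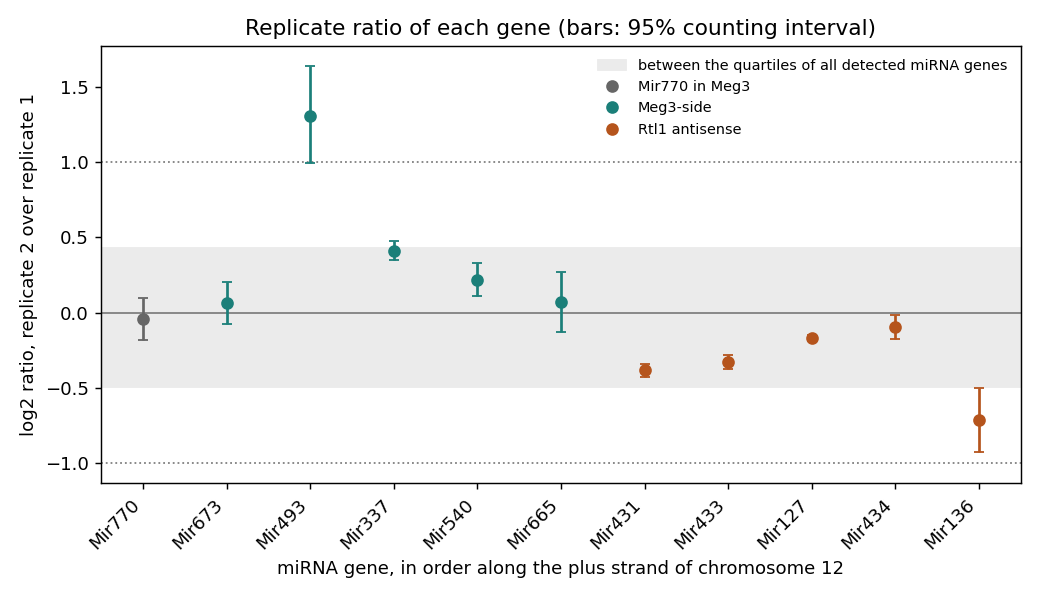
Log2 ratio of replicate 2 over replicate 1 (TMM scaling) with 95% counting intervals for Mir770 and the 10 genes in chromosomal order, over a grey band between the quartiles of all detected genes. The Meg3-side genes stand at 0.06 to 1.31 and the Rtl1 antisense genes at -0.71 to -0.09, and dotted lines mark 2-fold.

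A ratio of at least 2-fold was reached by 1 of the 10 genes, Mir493, which was higher in replicate 2. Among all 358 detected genes, 10.1% were at least 2-fold higher in replicate 2 and 8.38% at least 2-fold lower, 18.4% in either direction. A count of 1 in 10 is near this background. With library totals, Mir493 stood at 0.86 and was no longer past 2-fold, and Mir136 stood at -1.16. The median log2 ratio of the 10 genes was -0.02 and that of all detected genes -0.03. The medians of the sets were 0.22 for the Meg3-side genes and -0.33 for the Rtl1 antisense genes. Apart from Mir493 and Mir136, the genes lay between the quartiles of all detected genes, -0.49 and 0.43.

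**Figure D5:**
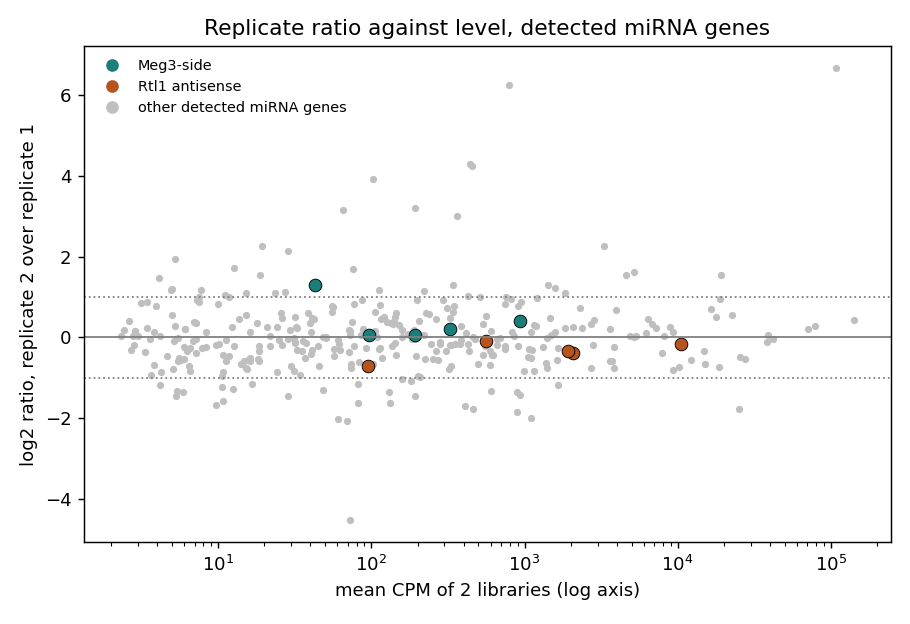
Log2 ratio of replicate 2 over replicate 1 against mean CPM (log axis) for all 358 detected miRNA genes, with dotted lines at 2-fold. The 10 genes, coloured by side, stand between -0.71 and 1.31, within the spread of the grey points.

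Further along the same strand, 44 annotated miRNA genes lie between Mir136 and Dio3, of which 36 were detected. The 10 proximal genes had 52.2% as many counts as these distal genes in replicate 2 and 49.1% in replicate 1, a mean of 50.6% ± 2.17 (SD, n = 2). The distal genes held 2.53% of all miRNA counts in replicate 2 and 4.13% in replicate 1, a mean of 3.33% ± 1.12. Of the detected distal genes, 19 had a log2 ratio above 0 and 17 below, with a median of 0.02 and a range of -1.76 to 1.71. Both signs therefore occurred among the distal genes. The 3 most abundant distal genes were Mir411 at 5468 CPM in replicate 2 and 13047 CPM in replicate 1, Mir379 at 5617 and 10069 CPM, and Mir541 at 3309 and 3930 CPM. Mir127 was above Mir411 in replicate 2 and below it in replicate 1.

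Other miRNA genes between the start of Meg3 and Mir136 were scarce apart from Mir770. Mir3070a, between Mir665 and Rtl1, had 15 counts in replicate 2 and 16 in replicate 1, and its neighbour Mir3070b had 12 and 9. These hairpins carry the same 5p arm, so their reads may map to both places and be set aside. Mir432, which lies between Mir434 and Mir136 inside the Rtl1 coding exon, had 0 counts in both libraries. A count of 0 allows up to 3 counts, or 0.596 CPM in replicate 2 and 0.790 CPM in replicate 1. Mir1906-1, within Meg3, had 0 counts in both libraries as well, which allows the same limits, and as a numbered copy it may have lost reads that map to several places.

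Of the 10 genes, 2 have a miRNA gene on the opposite strand, and in both pairs nearly all reads lay on the plus strand. Mir3544, opposite to Mir337, had 53 counts in replicate 2 and 82 in replicate 1, against 4641 and 3596 for Mir337. Mir3071, opposite to Mir136, had 3 counts in replicate 2 and 1 in replicate 1, against 293 and 496 for Mir136. Where the counts disregard strand, reads over both genes of a pair are set aside as ambiguous. In those counts Mir337 fell to 3 in replicate 2 and 0 in replicate 1, and Mir136 to 0 in both. The Meg3-side share of the counts of the 10 genes was then 4.32% on the mean, so the level of this side rests on counting by strand.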

How the data were processed

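Small RNA was sequenced from adrenal glands of 14 day old female mice, in 1 group of 2 replicates. For each library the deposited table holds the authors' raw counts by miRNA gene, made on mm10 with GENCODE M21 as the accompanying text files state. Each table has 4 summary lines and 2202 genes in 3 count columns without header. Aligner and counter were not given in the sources used here. Of the strand columns, the larger (the second count column) was read as the gene's own strand. Reads mapping to several places (25.0% of replicate 2, 28.0% of replicate 1) were set aside by the authors' counting. No molecular identifiers are mentioned, and reads may be PCR copies, so every interval and limit reflects counting error alone.

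CPM and shares were computed over all miRNA genes. Log2 ratios are replicate 2 over replicate 1, with edgeR TMM factors (0.855 and 1.17), a prior count of 0.5 and exact Clopper-Pearson intervals, and were called at 2-fold. Genes needed 10 counts in each library. The members and lists were chosen with earlier results of these data known. Named genes are the 10 members, other miRNA genes from Meg3 to Mir136, the 3 leading distal genes, the nearest in level to Mir127 and Mir337, genes sharing a seed, and Mir122. Further marker genes are named from the lists they belong to. Neighbours in level were said to differ where CPM did not overlap and the order held in both libraries, a rule that takes no account of counting error. Alternatives were the unstranded counts, each replicate left out, Mir122 left out, DESeq2 size factors, library totals, a prior count of 5, count minimums of 1 and 100, Mir127 or opposite-strand pairs left out, counts per hairpin base, and thinning. The DESeq2 size factors came out at 1 for both libraries, so that setting compared the raw counts without scaling. Tools were Python 3.11.15, pandas 2.3.3, scipy 1.17.1, edgeR 4.0.16 and DESeq2 1.42.0.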

Additional observations from a re-analysis of the deposited data

Results flagged for a closer look

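Reads on the strand opposite to Mir337, which do not enter its counts by strand, numbered 56 in replicate 2 and 82 in replicate 1. These are above the 3 counts that a count of 0 allows. Mir3544, annotated on that strand within the span of the Mir337 hairpin, had 53 and 82 counts and accounts for nearly all of them. The reads opposite to Mir337 made up 1.19% of the reads on either strand of this hairpin in replicate 2 and 2.23% in replicate 1. At Mir136 the opposite strand held 3 counts in replicate 2 and 1 in replicate 1, and the other 8 genes had 0 there in both libraries.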

How the results depend on the processing

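The Meg3-side share of the counts of the 10 genes, 9.86%, became 4.32% with unstranded counts and 4.31% with Mir337 and Mir136 left out, because each has a miRNA gene on the other strand. It was 26.4% with Mir127 left out. Leaving out Mir127 also brought the share of all miRNA counts to 0.624% and the counts as a percent of the distal genes to 18.9%. The median log2 ratio was -0.47 with library totals. Other settings moved the shares and the percent of the distal genes by less than their spread. The median log2 ratio has no spread between libraries, and under the other settings it lay between -0.06 and 0.01. Without either replicate the Meg3-side share was 8.17% to 11.5%. With library totals Mir493 was no longer past 2-fold and Mir136 was, at 0.86 and -1.16. With a minimum of 100 counts all 10 genes stayed detected, and 8 did in unstranded counts. No paired analysis was possible because there is 1 group. With 2 libraries, an SD is a rough measure of spread.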
